A study of Mus musculus with 4 samples.

Results

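Vascular smooth muscle cells were examined in single-cell RNA libraries of transplanted mouse hearts collected 5 days after grafting. A cell was taken as vascular smooth muscle when it held at least 2 unique molecular identifiers (UMIs, counted RNA molecules) of Myh11, at least 3 of Acta2 and Tagln together, and at most 1 of Pecam1, Cdh5 and Ptprc together. Cells needed at least 500 UMIs, at least 300 genes and at most 20% mitochondrial UMIs. By this rule 413 of 30895 cells were vascular smooth muscle cells, 114 of them from allogeneic grafts and 299 from the isogeneic one. Allogeneic hearts, from a donor genetically different from the recipient, gave 3 libraries (replicates 1, 2 and 3), and an isogeneic heart, matched to its recipient, gave 1 library (labelled replicate 2, called the isograft below). The labels give no strain, sex, age or added agent for either group. They do not say that replicates are separate animals, so p-values here reflect only how far libraries varied, which may be technical. The comparison addressed how these cells differed between allogeneic and isogeneic hearts 5 days after grafting.

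Vascular smooth muscle cells form the contractile layer of arteries. Smooth muscle myosin, encoded by Myh11, pulls on actin filaments when the light chain kinase Mylk is active, and the coactivator Myocd with serum response factor switches on the contractile genes through a promoter element called the CArG box. In injured arteries these cells can lose contractile genes and make matrix, which is called modulation, and in transplanted hearts they lie in arteries that the recipient's T cells and macrophages can attack. Interferon-gamma, made by T cells and natural killer cells, acts through the GAS element of its target promoters, and through factors of the Irf family, which bind the ISRE, to switch on GTPases, antigen presentation genes and chemokines.

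Depth ran from 51054446 to 63434265 UMIs in the allogeneic libraries, against 100038951 in the isogeneic one, and 4983, 8215 and 6311 allogeneic cells and 11386 isogeneic cells passed the limits. Between 7 and 30 cell barcodes were shared by each pair of libraries among the cells kept. The median smooth muscle cell held 9107.5, 6017.5 and 4654.5 UMIs (allogeneic replicates 1, 2 and 3), against 5653 for the isograft. Summed over smooth muscle cells, the profile of allogeneic replicate 3 lay closer to the isograft (SD of the log2 differences 0.70) than to allogeneic replicates 1 and 2 (0.93 and 0.77). These sums held 122723, 303999 and 294202 UMIs in the allografts and 2472698 in the isograft. The part of counting error in these distances, which is larger for small sums, was not tested.

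The defining genes, which the rule used, are described without a test. Myh11 reached 2062, 2099 and 1200 CPM (UMIs of the gene per 1000000 UMIs of these cells) in the smooth muscle cells of allogeneic replicates 1, 2 and 3 and 1344 CPM in those of the isograft. The actin gene Acta2 reached 8189, 12566 and 8402 CPM in the allografts and 12056 CPM in the isograft, and the actin-binding Tagln 10471, 11609 and 7338 CPM in the allografts and 12065 CPM in the isograft. A separate list of 25 contractile genes that the rule did not use summed to 20159, 22911 and 16727 CPM in the smooth muscle cells of allogeneic replicates 1, 2 and 3 and to 21802 CPM in those of the isograft. This was 10.1, 9.84 and 6.29 times the sum in all other cells of the same allogeneic library and 5.47 times that in the other cells of the isograft. As sums over members, the contractile genes therefore fitted the label in every library. Pericyte markers, several of which smooth muscle also expresses, stood at 110, 59.2 and 15.8 times the other cells of the allografts. In the isograft they stood at 10.3 times the other cells. These ratios do not set the members apart from pericytes.

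The cells were not uniform, and in allogeneic replicate 3 and the isograft those with few Myh11 UMIs carried more fibroblast transcripts than those with many. Median Myh11 UMIs were 13, 10 and 3 per allogeneic member (replicates 1, 2 and 3), against 7 per isogeneic member, so that replicate 3 lay lowest. Members just inside the limit, with 2 Myh11 UMIs, numbered 0, 3 and 20 in the allografts and 32 in the isograft. Cells just outside it, with 1 Myh11 UMI and otherwise alike, numbered 1, 6 and 86 in the allografts and 80 in the isograft. Dcn, a matrix proteoglycan of fibroblasts, stood at 1566 CPM in the 20 inside cells of allogeneic replicate 3 and at 2095 CPM in the 32 of the isograft, against 2461 and 2900 CPM in the cells just outside. The 3 such members of allogeneic replicate 2 held no Dcn UMI, nor did any member of replicate 1. In members with over 10 Myh11 UMIs, Dcn was at 0, 5.83 and 43.8 CPM in allogeneic replicates 1, 2 and 3 and at 1132 CPM in the isograft. The 13 fibroblast markers together summed to 937, 1234 and 7322 CPM in the smooth muscle cells of the allografts and to 9684 CPM in those of the isograft, with 7 markers at 0 in allogeneic replicate 1, 2 at 0 in replicate 2 and none in the other libraries. Fibroblasts numbered 36, 68 and 1024 in the allografts and 3386 in the isograft, so the fibroblast transcripts in smooth muscle cells were high in the libraries rich in fibroblasts. The part of free RNA or of joined cells in these transcripts was not tested.

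**Figure D1:**
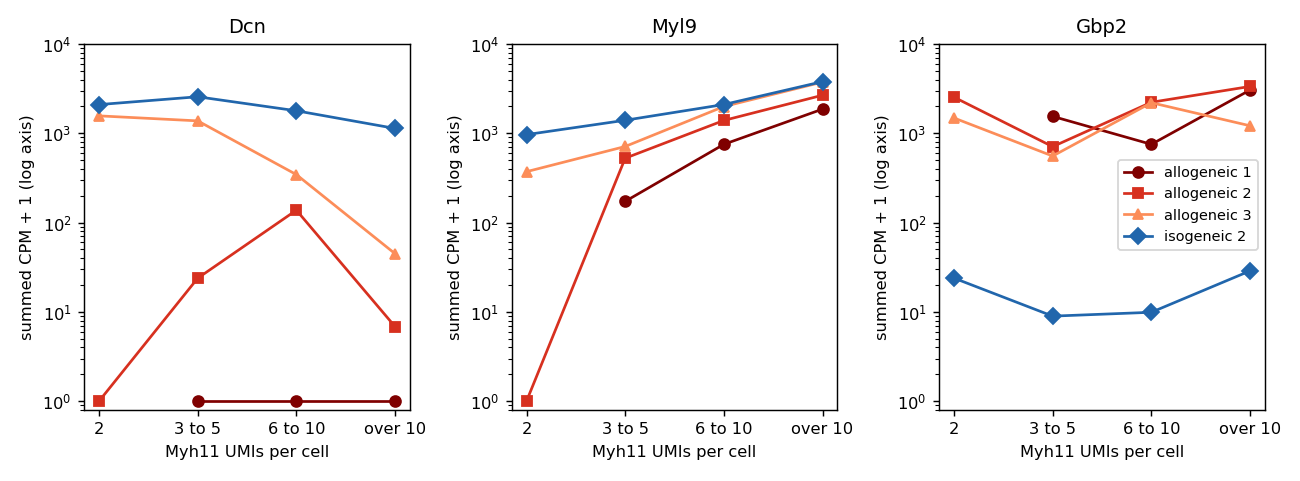
Summed CPM plus 1 (log axis) of Dcn, Myl9 and Gbp2 in smooth muscle cells grouped by their Myh11 UMIs, 1 line per library. No cell of allogeneic replicate 1 had 2 Myh11 UMIs, and its point at 6 to 10 is a single cell. Gbp2 lies above 500 CPM at every level in the allografts and under 30 CPM at every level in the isograft, while Dcn stays above 1000 CPM at every level in the isograft only.

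Smooth muscle cells made up a smaller share of the allogeneic libraries. They were 14 of 4983 cells in allogeneic replicate 1 (0.281%, exact 95% binomial interval 0.154 to 0.471), 46 of 8215 in replicate 2 (0.560%, 0.410 to 0.746) and 54 of 6311 in replicate 3 (0.856%, 0.643 to 1.11), against 299 of 11386 in the isograft (2.63%, 2.34 to 2.94). The intervals, which cover counting error only, did not overlap between the groups. The allogeneic mean of 0.566% ± 0.287 (SD, n = 3) lay 2.06 percentage points below the isograft. The exact two-sided permutation test gave p = 0.25, the smallest p that 3 libraries against 1 allow. Smooth muscle cells numbered 7.07, 8.42 and 12.5 per 100 endothelial cells in the allografts and 28.0 per 100 in the isograft. The endothelial cells were not split by type of vessel, so this is no measure per artery. Set against fibroblasts, there were 14, 46 and 54 members to 36, 68 and 1024 fibroblasts in the allografts. In the isograft there were 299 members to 3386 fibroblasts. By this measure replicates 1 and 2 lay above the isograft and replicate 3 below it. T cells numbered 754, 1198 and 424 in the allografts and 46 in the isograft. Cells that died, cells not freed by digestion, cells under the Myh11 limit and added leukocytes cannot be told apart in these shares.

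**Figure D2:**
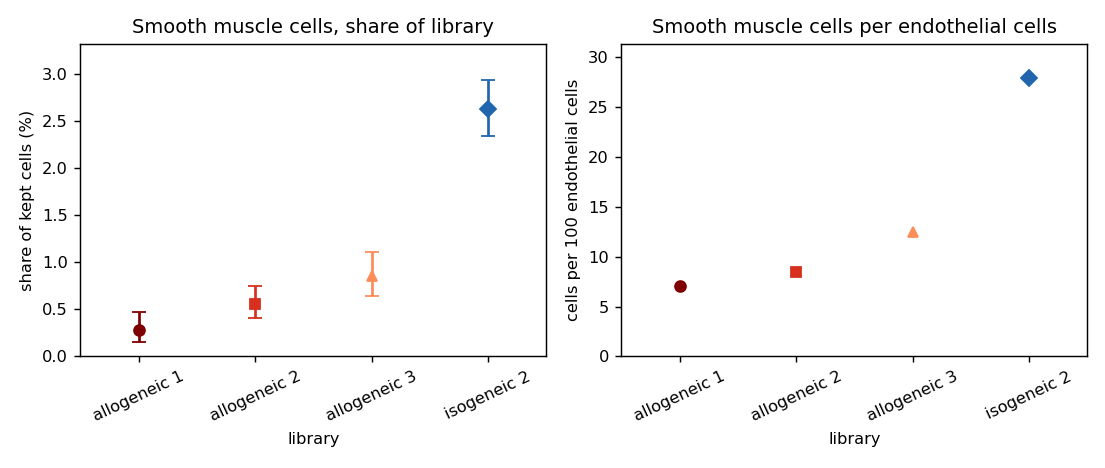
Left, smooth muscle cells as a percentage of the cells kept in each library, with exact 95% binomial intervals. Right, smooth muscle cells per 100 endothelial cells. The allogeneic libraries lie between 0.281% and 0.856%, below the isograft at 2.63%, and between 7.07 and 12.5 per 100 endothelial cells, below the isograft at 28.0.

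Raw UMIs were summed over the smooth muscle cells of each library and compared with edgeR's quasi-likelihood test. Of 6149 genes tested, 114 were higher in allogeneic smooth muscle cells at an adjusted p under 0.05 (1.85%) and 6 were lower (0.0976%), 120 in all (1.95%). DESeq2 called 126, of which 124 were higher. Of the 114 rises 72 were in one of the gene lists, led by the lists of interferon response and antigen presentation. The lists were chosen with earlier results of these data known. How many of all genes tested stand in a list was not counted, so the 72 have no share to be set against. The median of the 114 rises was 3.89 on the log2 scale, against 0.06 over all genes tested. Each of the 114 had its 3 allogeneic values above the isogeneic one, which was so for 28.9% of all genes tested. The 114 were chosen by the test on these same values, so this and the median describe them and are no separate support. Without allogeneic replicate 3 the count was 393, of which 206 were higher and 187 lower, and 114 of the 120 genes were called again.

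**Figure D3:**
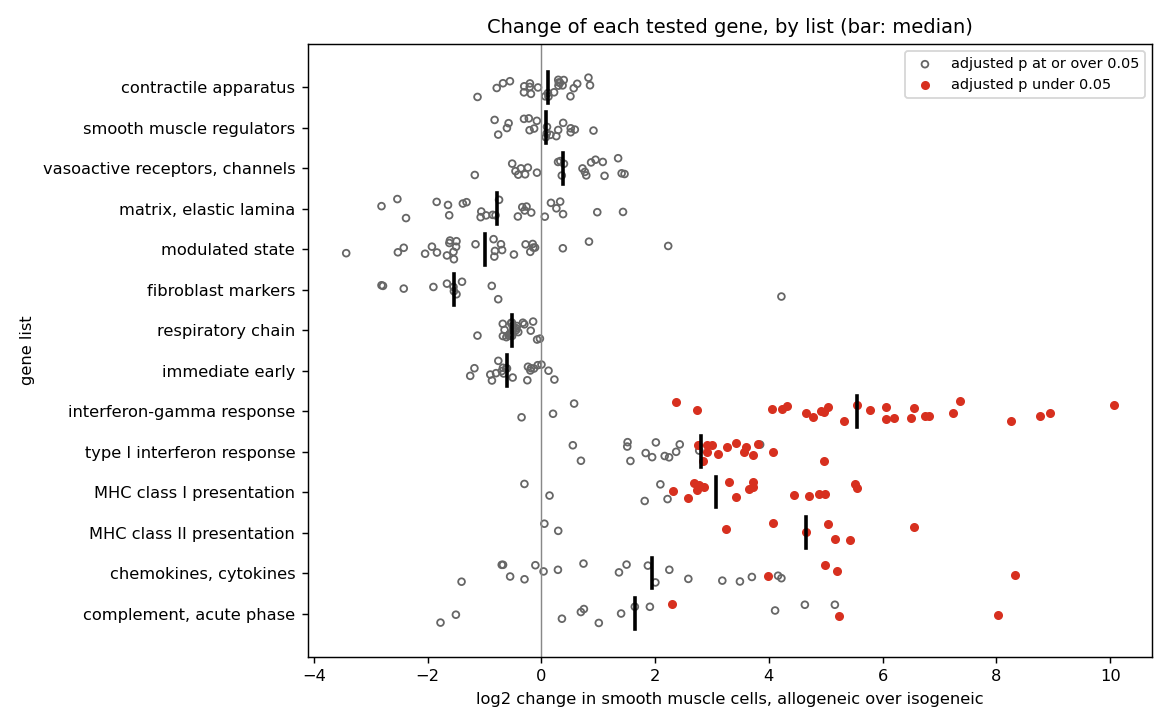
Log2 change in smooth muscle cells, allogeneic over isogeneic, of each tested gene of 14 gene lists (filled, adjusted p under 0.05; open, not; bar, list median). The interferon and MHC lists lie to the right, with medians between 2.81 and 5.55, and the contractile and regulator lists lie at 0.12 and 0.09.

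No contractile gene passed the test with all libraries. Of 25 such genes that the rule did not use, edgeR and DESeq2 called none (median log2 change 0.12, range -1.12 to 0.85), and 1 had an unadjusted p under 0.05 in edgeR. The light chain Myl9 was at 1402, 1947 and 1608 CPM in allogeneic smooth muscle cells and 2668 CPM in isogeneic ones, all 3 below (log2 change -0.79 ± 0.44 SE, edgeR adjusted p = 0.637). Cnn1, an actin-binding regulator of contraction, was at 163, 296 and 136 CPM in the allografts and 216 CPM in the isograft, which lay within the allogeneic range. The kinase Mylk was at 1019, 1016 and 608 CPM in the allografts and 526 CPM in the isograft, all 3 above (log2 change 0.63 ± 0.48, adjusted p = 0.731 in edgeR). The tropomyosin gene Tpm2 lay furthest of the list, at 2078, 2484 and 2512 CPM in the allografts against 4811 CPM in the isograft, again short of the threshold (log2 change -1.12 ± 0.43, edgeR adjusted p = 0.367). Without allogeneic replicate 3 Tpm2 was the 1 contractile gene called, as lower (log2 change -1.26, edgeR adjusted p = 0.0235). The test had 2 residual degrees of freedom and assumed that the lone isogeneic library varied like the allogeneic ones. Members were also chosen for Myh11, Acta2 and Tagln in every library. Cells that had lost these genes were left out, so the test cannot show whether such cells arose.

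No regulator or receptor passed either with all libraries. Of 20 tested regulators, edgeR called none, also at an unadjusted p under 0.05, and DESeq2 none (median 0.09). The coactivator Myocd was at 89.6, 165 and 68.0 CPM in the allografts and 71.6 CPM in the isograft, and the receptor Notch3, which arterial smooth muscle needs for its identity, at 578, 289 and 336 CPM in the allografts and 342 CPM in the isograft. Both sets overlapped. Of 22 tested vasoactive receptors, channels and signal proteins, both tools called none (median 0.38), and 4 were higher at an unadjusted p under 0.05 in edgeR. Ednra, the endothelin receptor that drives constriction, was at 179, 125 and 98.6 CPM in the allografts and 71.2 CPM in the isograft (log2 change 0.76 ± 0.42, edgeR adjusted p = 0.626). Prkg1, the cGMP-dependent kinase that relaxes smooth muscle, was at 1271, 901 and 472 CPM in the allografts and 316 CPM in the isograft (log2 change 1.35 ± 0.56, adjusted p = 0.428 in edgeR). Rgs5, a brake on G-protein signals that pericytes also express, was at 790, 388 and 1200 CPM in the allografts and 1679 CPM in the isograft (log2 change -1.17 ± 0.55, edgeR adjusted p = 0.513). Without allogeneic replicate 3, edgeR called the regulator Klf2 lower by a log2 change of -1.80 and Rgs5 lower by -1.74, and called Prkg1 and the calcium channel gene Cacna1c higher by 1.58 and 1.72.

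Matrix genes and genes of the modulated state lay lower in the allografts without passing the test. By edgeR none of 26 matrix genes passed (median -0.78), with 10 lower and 1 higher at an unadjusted p under 0.05. None of 28 genes of the modulated state passed either (median -1.0), with 7 lower and 1 higher at an unadjusted p under 0.05. DESeq2 called no matrix gene and 1 gene of the modulated list, as higher. In the modulated list 20 genes had all 3 allogeneic values below the isogeneic one, against 22.1% of all genes tested. Eln, elastin, was at 106, 270 and 95.2 CPM in the allografts and 190 CPM in the isograft, within the allogeneic range. The matrix Gla protein gene Mgp, an inhibitor of vessel calcification, was at 497, 1757 and 4177 CPM in the allografts and 6461 CPM in the isograft. Spp1, osteopontin, a gene of modulated cells and of macrophages, was at 40.7, 16.4 and 279 CPM in the allografts and 1217 CPM in the isograft (log2 change -3.43 ± 0.86, edgeR adjusted p = 0.0789). The fibroblast markers moved alongside, with a median of -1.54 and none of 12 called by edgeR (6 lower and 1 higher at an unadjusted p under 0.05, and 1 higher by DESeq2). Without replicate 3, the allogeneic library with most fibroblasts, 15 of the 28 modulated-state genes, 7 of 26 matrix genes and 9 of 12 fibroblast markers fell in edgeR, and 1 gene of each list rose. The part of fibroblast RNA in the lower values was not tested. Modulated cells under the Myh11 limit would not be members, so these values do not cover them.

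**Figure D4:**
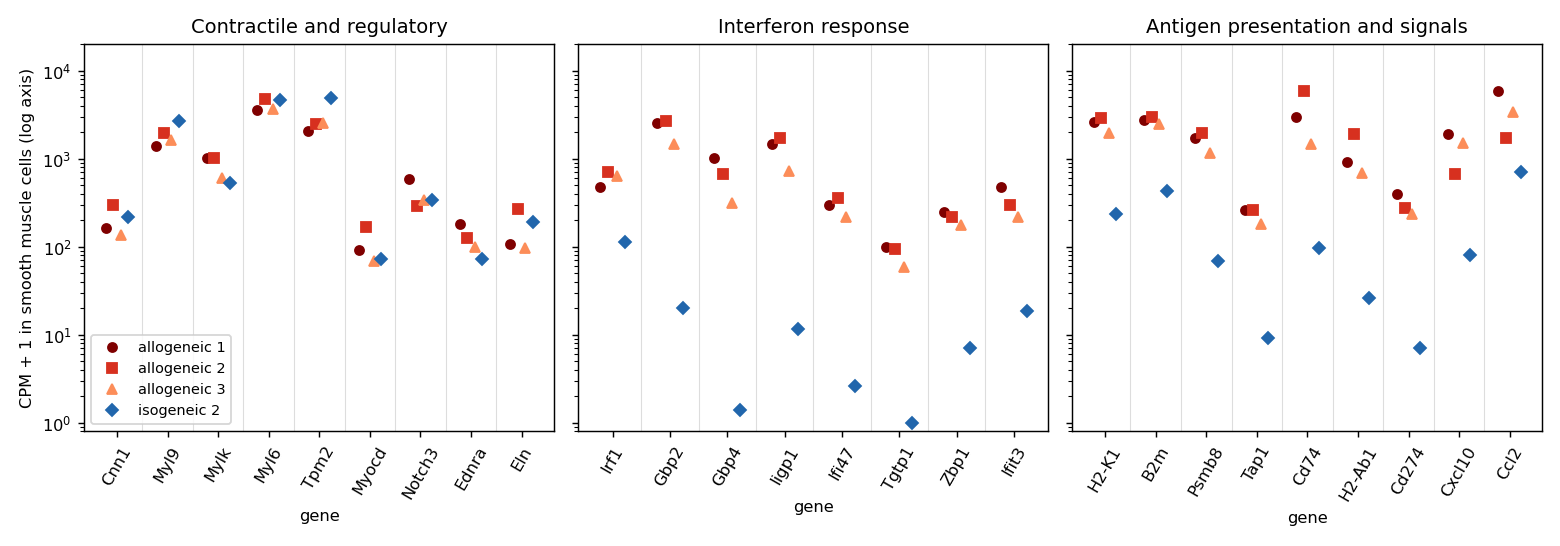
CPM plus 1 (log axis) in smooth muscle cells of the 3 allogeneic libraries and the isogeneic one, for contractile and regulatory genes, interferon-response genes, and antigen presentation and signal genes. Cnn1 at 163, 296 and 136 CPM overlaps the isograft at 216 CPM, while Gbp2 at 2567, 2645 and 1455 CPM lies above the isograft at 19.0 CPM.

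Genes of the interferon-gamma response rose together with the transcription factor Irf1. Of 29 tested genes of this list, 26 were higher (median log2 change 5.55), and the other 3 were the receptor chains Ifngr1 and Ifngr2 and the kinase Jak2, which did not pass. Irf1, a transcription factor that interferon-gamma induces, was at 473, 711 and 636 CPM in allogeneic smooth muscle cells and 111 CPM in isogeneic ones (log2 change 2.36 ± 0.52, adjusted p = 0.0361 in edgeR). The groups did not overlap, and replicate 1 was the lowest allograft.

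GTPases of the guanylate-binding and immunity-related families, which act against microbes inside cells, were among the steepest rises. Gbp2 was at 2567, 2645 and 1455 CPM in the allografts and 19.0 CPM in the isograft (log2 change 6.74 ± 0.73, edgeR adjusted p = 0.000579). It was found in 100%, 97.8% and 61.1% of allogeneic smooth muscle cells and in 13.7% of isogeneic ones. In T cells, which mark how much Gbp2 a cell of another type showed, the shares were 46.4%, 39.6% and 56.4% in the allografts and 6.52% in the isograft, at median depths of 10064.5, 7409, 7445 and 6319 UMIs. With cells thinned to 2000 UMIs, which left 14, 42 and 48 allogeneic and 271 isogeneic smooth muscle cells, the shares with Gbp2 were 100%, 90.5% and 58.3% in the allografts and 3.32% in the isograft. In thinned T cells they were 21.1%, 17.0% and 34.7% in the allografts and 2.86% in the isograft. Thinned endothelial cells showed Gbp2 in 98.4%, 98.4% and 82.7% in the allografts and in 4.56% in the isograft. Thinned fibroblasts showed it in 91.4%, 88.5% and 78.5% in the allografts and in 2.34% in the isograft. Both classes stood above smooth muscle cells in replicate 3, so the rise was not particular to smooth muscle. In replicate 3 the unthinned smooth muscle share stood little above that of T cells, while its CPM was 1455 in smooth muscle cells and 358 in T cells. Within each range of Myh11 UMIs that held cells, summed Gbp2 was between 555 and 3343 CPM in the allografts and between 7.95 and 27.8 CPM in the isograft. Single cells of replicate 3 were not alike. Among its members with over 10 Myh11 UMIs, those with 5551, 5646, 5787 and 10422 UMIs in all held no Gbp2 UMI. That with 10122 UMIs held 1 Gbp2 UMI, and the others held 11 to 39. Iigp1 was at 1475, 1711 and 717 CPM in the allografts and 10.5 CPM in the isograft (log2 change 6.81 ± 0.79, adjusted p = 0.000613 in edgeR), and Ifi47 at 293, 352 and 214 CPM in the allografts and 1.62 CPM in the isograft.

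Several GTPase genes had almost no UMIs in the isograft. Gbp4 had 417 UMIs in the allografts and 1 in the isograft, a ratio of CPM of 1430 with a 95% counting interval of 255 to 56626. Gbp8 had 119 UMIs in the allografts and 1 in the isograft (ratio 408, interval 71.9 to 16255), and Gbp6 71 UMIs in the allografts and 1 in the isograft (ratio 244, interval 42.3 to 9752). Tgtp1 was at 97.8, 92.1 and 57.8 CPM in the allografts with no UMI in the isograft, at least 65.2-fold higher when the isograft is set at 3 counts. Gbp10 was at least 40.0-fold higher by the same bound, and Ubd, a ubiquitin-like modifier, at least 61.7-fold, with 62.2% of its UMIs in replicate 3 in a single cell. Genes of these families are near-identical copies (Tgtp1 with Tgtp2, and the Gbp genes with each other), so reads may have been split between them. These genes passed edgeR's test with adjusted p between 0.000573 for Ifi47 and 0.00937 for Gbp10.

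The type I interferon list rose in part: 14 of 28 tested genes were higher (median 2.81) and none fell. All 28 had 3 allogeneic values above the isogeneic one, against 28.9% of all genes tested. With cells of 1 Myh11 UMI included 1 of 29 passed (median 2.25). Zbp1, a sensor of nucleic acid, was at 244, 214 and 173 CPM in the allografts and 6.07 CPM in the isograft (log2 change 4.96 ± 0.55, edgeR adjusted p = 0.000579). Ifit3 was at 481, 299 and 218 CPM in the allografts and 17.8 CPM in the isograft (log2 change 4.07 ± 0.59, adjusted p = 0.00248 in edgeR). Irf7, an activator of interferon genes, and the membrane tether Bst2 also rose, by 3.72 and 3.26 on the log2 scale. Mx1 was at 81.5, 3.29 and 13.6 CPM in the allografts and 1.62 CPM in the isograft and did not pass (edgeR adjusted p = 0.668). Many genes of this list also respond to interferon-gamma, so the lists do not separate the interferons.

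The 250 bases before the start of each gene were searched for the ISRE and GAS elements, on both strands. RefSeq (GRCm38.p6) gave a promoter for 83 of the 114 genes that rose and for 4913 of the genes tested. The ISRE, written GAAANNGAAA, stood in 36.1% of the promoters of genes that rose, 3.97% of those of tested genes and 3.46% of all 27025 in the table. The GAS element, written TTCNNNGAA, stood in 18.1%, 7.02% and 8.13% of these sets, and either element in 45.8%, 10.4% and 11.1%. The CArG box was in none of the 83 and in 3 of 24 contractile promoters (12.5%), against 1.62% of all. The promoters below were chosen for holding a match: Irf1, Psmb8, Igtp (a GTPase of the interferon-gamma list) and Gbp2, which rose, and Myl9, which did not pass the test. Capitals mark the GAS element in Irf1 (90 bases before the start) and Psmb8 (97 before), the GAS and then the ISRE in Igtp (45 and 34 before), the ISRE in Gbp2 (59 before, as its reverse complement) and the CArG box in Myl9 (161 before). They lie on the plus strand at chr11:53769764-53770013 for Irf1, chr17:34197945-34198194 for Psmb8, chr11:58199306-58199555 for Igtp, chr3:142620413-142620662 for Gbp2 and chr2:156775214-156775463 for Myl9. A match is a run of letters and not shown to be a bound site.
Irf1: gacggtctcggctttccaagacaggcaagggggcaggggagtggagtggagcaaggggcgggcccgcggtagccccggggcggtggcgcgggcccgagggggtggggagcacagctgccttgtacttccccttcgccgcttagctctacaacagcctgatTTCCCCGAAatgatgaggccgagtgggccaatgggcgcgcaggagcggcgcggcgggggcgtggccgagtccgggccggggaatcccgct
Psmb8: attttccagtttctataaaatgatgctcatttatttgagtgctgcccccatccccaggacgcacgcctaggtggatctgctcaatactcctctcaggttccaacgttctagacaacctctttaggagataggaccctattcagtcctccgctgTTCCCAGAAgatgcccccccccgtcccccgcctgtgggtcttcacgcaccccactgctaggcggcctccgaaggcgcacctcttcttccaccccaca
Igtp: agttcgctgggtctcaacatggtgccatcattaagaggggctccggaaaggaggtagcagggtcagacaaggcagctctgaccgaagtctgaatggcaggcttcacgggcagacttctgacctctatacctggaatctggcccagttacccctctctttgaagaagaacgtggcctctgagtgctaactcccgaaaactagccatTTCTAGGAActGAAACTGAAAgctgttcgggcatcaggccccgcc
Gbp2: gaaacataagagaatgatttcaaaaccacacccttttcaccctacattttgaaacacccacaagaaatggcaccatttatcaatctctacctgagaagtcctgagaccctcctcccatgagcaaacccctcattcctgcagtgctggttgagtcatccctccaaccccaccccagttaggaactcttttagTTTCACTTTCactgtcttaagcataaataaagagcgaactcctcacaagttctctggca
Myl9: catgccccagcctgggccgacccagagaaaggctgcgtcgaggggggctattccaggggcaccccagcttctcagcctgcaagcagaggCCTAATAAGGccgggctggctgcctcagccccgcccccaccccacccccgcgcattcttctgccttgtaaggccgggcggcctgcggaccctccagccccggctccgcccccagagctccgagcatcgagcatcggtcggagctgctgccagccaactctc

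Genes of MHC class I presentation, by which cells show their own peptides to CD8 T cells, rose. Of 22 tested genes 17 were higher (median 3.08) and none fell, and with cells of 1 Myh11 UMI included 6 passed (median 2.94). The heavy chain H2-K1 was at 2599, 2911 and 1961 CPM in allogeneic smooth muscle cells and 235 CPM in isogeneic ones (log2 change 3.30 ± 0.56, edgeR adjusted p = 0.00759). Its partner B2m was at 2770, 2990 and 2468 CPM in the allografts and 427 CPM in the isograft (log2 change 2.58 ± 0.52, adjusted p = 0.0226 in edgeR). The allogeneic values lay close together and apart from the isograft for both genes. The immunoproteasome subunits Psmb8 (1703, 1941 and 1142 CPM in the allografts against 67.9 CPM in the isograft) and Psmb9 (456, 556 and 479 CPM in the allografts against 14.6 CPM in the isograft) rose by 4.44 ± 0.62 and 4.99 ± 0.57, and the peptide transporter Tap1 (261, 260 and 180 CPM in the allografts against 8.09 CPM in the isograft) by 4.71 ± 0.56. Nlrc5, the activator of class I genes, was at 130, 128 and 74.8 CPM in the allografts and 2.02 CPM in the isograft (log2 change 5.55 ± 0.64, edgeR adjusted p = 0.000613). The chaperone genes Calr and Pdia3, which serve all secreted proteins, and H2-D1, H2-M3 and the trimming peptidase Erap1 did not pass. Class I genes differ between strains and H2-Q6 and H2-Q7 are near-identical, so counts of single heavy chains are uncertain.

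Genes of MHC class II presentation, by which mainly immune cells show peptides to CD4 T cells, also rose, with 7 of 9 tested genes higher (median 4.66). With cells of 1 Myh11 UMI included edgeR called none of 10 (median 4.25). The invariant chain Cd74 was at 2990, 5842 and 1472 CPM in allogeneic smooth muscle cells and 96.3 CPM in isogeneic ones (log2 change 5.05 ± 0.88, edgeR adjusted p = 0.00832). H2-Ab1 was at 921, 1888 and 683 CPM in the allografts and 25.1 CPM in the isograft (log2 change 5.43 ± 0.80, adjusted p = 0.00257 in edgeR). Ciita, the activator of class II genes, had 41 UMIs in the allografts and 1 in the isograft (ratio 141, 95% counting interval 23.9 to 5688). Ctss and Ifi30, which serve this route in macrophages and are not class II chains, had the isograft within their allogeneic range. Class II genes are high in macrophages and dendritic cells, so the level of a macrophage gene is given beside them. Lyz2, the lysozyme of macrophages, was found in 92.9%, 84.8% and 51.9% of allogeneic and 44.1% of isogeneic smooth muscle cells, and in 96.8%, 91.3% and 57.5% of allogeneic and 45.7% of isogeneic T cells.

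UMIs per UMI of Lyz2 are given beside those of all other cells of the library, which are a mix of cells that express these genes and no measured profile of free RNA. Smooth muscle cells held 7.98, 4.40 and 1.80 Cd74 UMIs per Lyz2 UMI in allogeneic replicates 1, 2 and 3, against 2.05, 1.99 and 1.12 in the other cells. For H2-Ab1 the ratios were 2.46, 1.42 and 0.834 in smooth muscle cells and 0.677, 0.585 and 0.376 in the other cells. Gbp2 stood at 6.85, 1.99 and 1.78 per Lyz2 UMI in smooth muscle cells and at 0.117, 0.138 and 0.368 in the other cells. These genes were above the ratio of the other cells in every allograft, class II genes by less than Gbp2. Lyz2 was uneven among members, so these ratios mix unlike cells. In replicate 2 it was at 5499 CPM in the 8 members with 3 to 5 Myh11 UMIs and 513 CPM in the 22 with over 10. In replicate 3 it was at 1909 CPM in the 20 members with 2 Myh11 UMIs and 29.2 CPM in the 9 with over 10. For Cxcl9 the ratios were 0.500, 0.493 and 2.10 in smooth muscle cells and 0.542, 0.476 and 1.45 in the other cells. For Saa3 they were 0.174, 0.564 and 0.344 in smooth muscle cells and 0.143, 0.357 and 0.839 in the other cells, and for Gm15056 0.261, 0.371 and 0.0581 in smooth muscle cells and 0.257, 0.262 and 0.107 in the other cells. These 3 genes did not lie above the other cells' ratio by a like margin in every allograft. The part of free RNA in any of these rises was not tested.

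**Figure D5:**
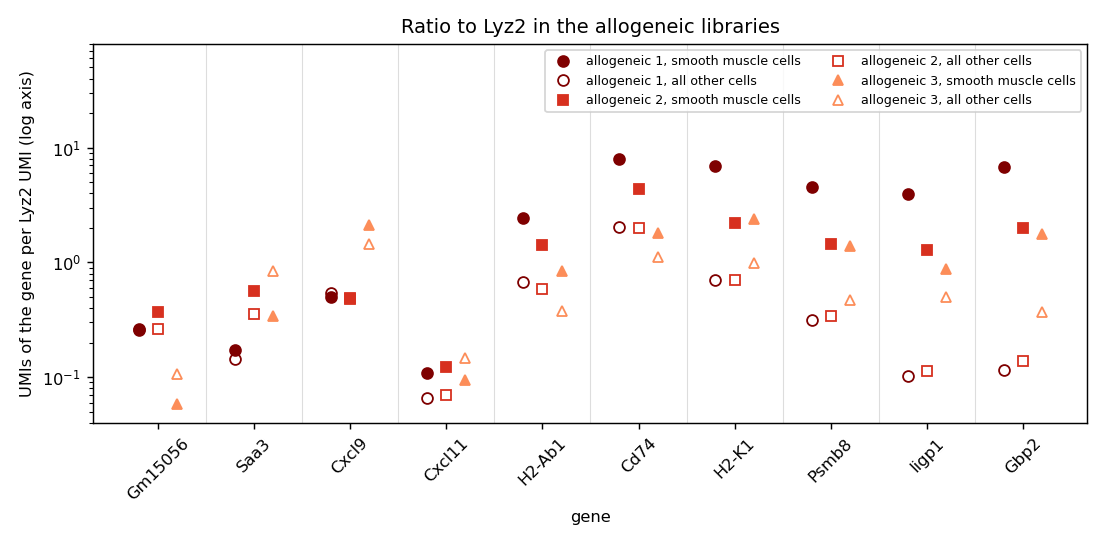
UMIs of each gene per UMI of Lyz2 (log axis) in the 3 allogeneic libraries, in smooth muscle cells (filled) and in all other cells of the library (open). Gbp2, H2-K1 and Cd74 lie above the other cells in each library, while Cxcl9, Saa3 and Gm15056 lie near or on either side of them.

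Among 24 tested chemokines and cytokines, 4 rose (median 1.94) and none fell. This count moved with the libraries: 7, 9 and 7 rose without allogeneic replicates 1, 2 and 3, and without replicate 3 the neutrophil attractants Cxcl1 and Cxcl2 fell. DESeq2 called 7, and edgeR none once cells of 1 Myh11 UMI were included. Cxcl10, which draws T cells through Cxcr3, was at 1915, 674 and 1516 CPM in allogeneic smooth muscle cells and 80.1 CPM in isogeneic ones (log2 change 3.98 ± 0.71, edgeR adjusted p = 0.00975). In replicate 1 a single cell held 76.2% of its UMIs. Cxcl9, a ligand of the same receptor, was at 187, 655 and 1720 CPM in the allografts and 2.43 CPM in the isograft (log2 change 8.33 ± 1.42, adjusted p = 0.00757 in edgeR), while endothelial cells held 7344, 6004 and 7850 CPM in the allografts and 13.3 CPM in the isograft. Cxcl11 and Ccl5 were the other called genes, by 4.99 and 5.20 on the log2 scale, and 52.0% of the Ccl5 UMIs in replicate 1 came from a single cell. Ccl2, the monocyte attractant, was at 5777, 1734 and 3358 CPM in the allografts and 699 CPM in the isograft and did not pass (log2 change 2.25 ± 0.67, edgeR adjusted p = 0.164), but passed without replicate 3 (log2 change 2.20, edgeR adjusted p = 0.0373), with 81.9% of its UMIs in replicate 1 in a single cell.

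Of adhesion molecules and ligands for T cell receptors 6 could be tested and 1 rose. Cd274, the ligand PD-L1 that restrains T cells, was at 399, 273 and 231 CPM in allogeneic smooth muscle cells and 6.07 CPM in isogeneic ones (log2 change 5.47 ± 0.60, edgeR adjusted p = 0.000579). Vcam1, which holds leukocytes, was at 326, 135 and 296 CPM in the allografts and 178 CPM in the isograft, and Icam1 at 8.15, 55.9 and 116 CPM in the allografts and 50.1 CPM in the isograft. Both overlapped the isograft. Of 15 complement and acute phase genes 3 rose: C4b (318, 227 and 88.4 CPM in the allografts against 4.85 CPM in the isograft), C1s1 (530, 438 and 418 CPM in the allografts against 86.9 CPM in the isograft) and Saa3. Of this list 6 genes rose without replicate 1 and 6 without replicate 2, where 1 fell, DESeq2 called 5 higher, and without replicate 3 Serpina3n and Cd59a fell. Of 18 genes of cell death and nitric oxide 1 rose, Mlkl, the effector of necroptosis, at 89.6, 59.2 and 37.4 CPM in the allografts and 7.28 CPM in the isograft (log2 change 2.87 ± 0.63, adjusted p = 0.0347 in edgeR), a list in which DESeq2 called no gene, nor did edgeR without replicate 1 or without replicate 2, while Mlkl and Casp4 were called without replicate 3. Nos2 had 13 UMIs in the allografts and none in the isograft and was too low to be tested (at least 14.9-fold higher at a floor of 3 counts), as was Vsir, the gene of VISTA, with 13 UMIs in the allografts and 41 in the isograft.

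The level of each gene that rose was set beside that of the other cells of the library. Of the 114 genes that rose, 34 (29.8%) stood above the other cells of the library in all 3 allografts, near the 31.7% of all genes tested. More than 2 times above were 4 (3.51%), against 10.2% of the genes tested, and these 4 were chosen after their values were seen. Or5m3b, annotated as an olfactory receptor gene, was at 807, 793 and 224 CPM in allogeneic smooth muscle cells and 5.26 CPM in isogeneic ones (log2 change 6.68 ± 0.91, edgeR adjusted p = 0.00169). In the other cells it was at 7.07, 11.97 and 71.8 CPM in the allografts and 6.06 CPM in the isograft. Apol6 was at 220, 286 and 160 CPM in allogeneic smooth muscle cells and 9.30 CPM in isogeneic ones, and at 7.17, 6.97 and 52.4 CPM in the other cells of the allografts. The polarity protein gene Mpp7 and the lectin gene Clec2d were the other 2. In fibroblasts Or5m3b was at 19.8, 54.3 and 179 CPM in the allografts and 8.55 CPM in the isograft. Apol6 in fibroblasts was at 152, 138 and 105 CPM in the allografts and 1.33 CPM in the isograft. Clec2d was at 627, 470 and 442 CPM in allogeneic smooth muscle cells and at 463, 526 and 680 CPM in allogeneic endothelial cells. Mpp7 stood above fibroblasts and endothelial cells in every allograft. The pooled other cells are thus no measure of these classes.

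The 6 falls included Hbb-bt, Hba-a1, Hbb-bs, Srpx2 and Ccdc80. The 3 globin genes rested on single isogeneic cells, which held 98.0% of the 3319 Hbb-bs UMIs, 97.5% of the Hba-a1 UMIs and 98.9% of the Hbb-bt UMIs of the isograft. With the highest cell of each gene and library left out, Hbb-bs changed by 0.98 on the log2 scale, and edgeR called no gene lower, with 88 called higher and 481 at an unadjusted p under 0.05 in either direction. DESeq2, with every cell, called 2 genes lower, both of them globin genes. Ccdc80, a matrix protein of fibroblasts, was at 16.3, 49.3 and 122 CPM in the allografts and 415 CPM in the isograft (log2 change -2.67 ± 0.58, edgeR adjusted p = 0.0354). Srpx2 had 3 UMIs in the allografts and 191 in the isograft (ratio 0.0539, 95% counting interval 0.0110 to 0.160).

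Markers of other cells were present. T and natural killer cell markers summed to 1882, 908 and 904 CPM in allogeneic smooth muscle cells, mostly Ccl5, and to 45.7 CPM in isogeneic ones, with 5, 0 and 0 of 14 markers at 0 in the allografts and 8 in the isograft. Of the 4 that could be tested edgeR called 1, Ccl5, with all 4 higher at an unadjusted p under 0.05, and DESeq2 called all 4 higher. Monocyte and macrophage markers summed to 1247, 4362 and 2209 CPM in the allografts and 2472 CPM in the isograft, and none of 11 tested was called by edgeR, at an unadjusted p under 0.05 either, or by DESeq2. Of plasma cell genes, Igkc was at 4522, 85.5 and 116 CPM in the allografts and 0.809 CPM in the isograft, with 98.9% of its UMIs in replicate 1 in a single cell, and it was not called (edgeR adjusted p = 0.101). The 8 B and plasma cell markers summed to 5557, 109 and 143 CPM in the allografts and 2.43 CPM in the isograft, DESeq2 called 1 of the 2 that could be tested, and edgeR called both without replicate 2 or 3. Cardiomyocyte markers summed to 318, 303 and 241 CPM in the allografts and 266 CPM in the isograft, which was 2.08, 1.23 and 3.09 times the other cells of the allografts and 10.7 times those of the isograft. Erythroid and platelet markers summed to 139, 62.5 and 252 CPM in the allografts and 2254 CPM in the isograft. The summed endothelial markers were at 782, 572 and 1084 CPM in the allografts and 737 CPM in the isograft. Pericyte markers, several of which smooth muscle also expresses, summed to 3268, 2089 and 2964 CPM in the allografts and 3782 CPM in the isograft. The part of these transcripts in the rises was not tested.

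No list of cell metabolism, growth or stress held a gene called by edgeR or DESeq2 with all libraries. All 24 respiratory chain genes lay below 0 (median -0.51), as did 2841 of the 6149 genes tested. Of the 24, 18 had all 3 allogeneic values below the isogeneic one, against 22.1% of all genes tested. None of 21 glycolysis genes (median -0.21), 27 growth factor genes (median -0.01), 21 immediate early genes, which tissue digestion induces (median -0.61), or 9 cell cycle genes (median -0.95) passed. At an unadjusted p under 0.05, edgeR counted 0 respiratory chain, 3 glycolysis, 5 growth factor, 0 immediate early and 2 cell cycle genes. Without allogeneic replicate 3, edgeR called the growth factor genes Angpt2 and Pdgfd higher and Igf1 and Igfbp5 lower, 4 immediate early genes lower (Fosb, Gadd45b, Myc and Ier3) and the cell cycle genes Stmn1 and Hmgb2 lower. Fos was at 334, 1164 and 2845 CPM in the allografts and 2435 CPM in the isograft, which lay within the allogeneic range. Pdgfa, a growth factor for smooth muscle, was at 717, 500 and 296 CPM in the allografts and 196 CPM in the isograft, and its receptor gene Pdgfrb at 456, 365 and 200.5 CPM in the allografts and 182 CPM in the isograft (edgeR adjusted p = 0.431 and 0.675).

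The size of the allogeneic effect in smooth muscle was tested against that in endothelial cells and in fibroblasts of the same libraries. It differed from endothelial cells for 156 of 13244 genes (1.18%), 116 with the smooth muscle effect more positive and 40 with it more negative, and 9 of the 114 rises were among them. It differed from fibroblasts for 2 of 11184 genes (0.0179%, with 435 at an unadjusted p under 0.05). These counts moved with single libraries: leaving out 1 allograft at a time gave 62, 13 and 520 against endothelial cells for replicates 1, 2 and 3 and 35, 9 and 323 against fibroblasts. Tgtp1 was at 97.8, 92.1 and 57.8 CPM in allogeneic smooth muscle cells and 0 in isogeneic ones, and at 136, 114 and 155 CPM in allogeneic endothelial cells and 6.12 CPM in isogeneic ones. Serpina3f, a protease inhibitor, was at 16.3, 9.87 and 78.2 CPM in allogeneic smooth muscle cells and 2.43 CPM in isogeneic ones, against 318, 237 and 225 CPM in allogeneic endothelial cells and 0.824 CPM in isogeneic ones, a difference of effect of -4.56 ± 0.99 (edgeR adjusted p = 0.00136). Gja4, a gap junction gene of arterial smooth muscle and endothelium, was at 481, 217 and 381 CPM in allogeneic smooth muscle cells and 269 CPM in isogeneic ones, and at 652, 518 and 162 CPM in allogeneic fibroblasts and 3.37 CPM in isogeneic ones (difference of effect -6.59 ± 0.77, adjusted p = 0.00141 in edgeR). Pericytes, at 3, 5 and 11 cells in the allografts and 39 in the isograft, were too few for the same test.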

How the data were processed

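The deposited matrices hold raw UMI counts, whole numbers per gene and cell barcode for 34097 genes in each of 4 libraries. Cell Ranger appears as 3.1.0 (build mm10) per the submitters' processing notes and as 6.1.0 per the file headers. Use of strand is not stated. Barcodes were filtered and members chosen by the rule given at the start, and their counts were summed per library. The sums of 122723, 303999 and 294202 UMIs for the allografts and 2472698 for the isograft were compared with edgeR 4.0.16 (R 4.3.3) by its quasi-likelihood F-test, with TMM, the default filter on low counts and Benjamini-Hochberg adjusted p-values under 0.05 across the genes tested. Each SE is approximate, taken from the log2 change and its F statistic. CPM is a gene's share of all UMIs of the summed cells, times 1000000. Differences of effect between cell classes had the library as a block. DESeq2 1.42.0, other filters, other cell limits, doublet removal (Scrublet in scanpy 1.11.5, Python 3.11.15) and thinning to 2000 UMIs were alternatives. Scripts were tested on simulated data.

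Endothelial cells had at least 3 UMIs of Pecam1 and Cdh5 and none of Ptprc and Myh11. Fibroblasts had at least 1 of Pdgfra, at least 3 of Col1a1, Col1a2 and Dcn together and none of Myh11. They also had at most 1 of Pecam1, Cdh5 and Ptprc together. T cells had at least 3 of Cd3 genes and none of Myh11, Pecam1 and Cdh5. Genes named are the 10 largest rises and falls that passed, with all 3 allografts on 1 side of the isograft and at least 10 counts in a library, examples from each of 29 gene lists, 25 genes fixed by name and the 5 largest differences of effect in each direction; 2 of these genes are not reported here. The members, gene lists and genes were chosen with earlier results of these data known. Counting intervals and floors cover counting error only, since no cell is an independent replicate.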

Additional observations from a re-analysis of the deposited data

Results flagged for a closer look

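The allogeneic effect differed between smooth muscle and endothelial cells for 156 genes, and between smooth muscle cells and fibroblasts for 2, each by an edgeR test of the difference itself. Against endothelial cells the largest differences toward smooth muscle were AU021092 (8.23 on the log2 scale), Cxcl3 (7.37), Nos2 (7.06), Tgtp1 (6.099) and Gm49708 (5.97). AU021092 had 0, 0 and 3 UMIs in allogeneic smooth muscle cells and 0 in isogeneic ones, against 20, 23 and 50 in allogeneic endothelial cells and 418 in isogeneic ones, so its difference comes from the endothelial side. Cxcl3 had 52, 47 and 9 UMIs in allogeneic smooth muscle cells and 13 in isogeneic ones, and they stood in 2, 3 and 6 allogeneic cells. Nos2 had 3, 8 and 2 UMIs in allogeneic smooth muscle cells and none in isogeneic ones. Endothelial cells held more Nos2, at 47.5, 51.9 and 43.9 CPM in the allografts against 24.4, 26.3 and 6.80 CPM in smooth muscle cells. Gm49708 had 7, 9 and 5 UMIs in allogeneic smooth muscle cells and 32 in isogeneic ones, which is 57.0, 29.6 and 17.0 CPM against 12.9 CPM. In endothelial cells it had 0, 0 and 2 UMIs in the allografts and 78 in the isograft, so its difference comes in large part from the endothelial side.

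The largest differences toward endothelial cells were Hbb-bt (-5.92), Tcap (-5.23), Serpina3f (-4.56), Hdc (-4.28) and Hbb-bs (-3.76). Those of the globin genes rest on single isogeneic smooth muscle cells. Hdc, the enzyme that makes histamine, had 0, 2 and 0 UMIs in allogeneic smooth muscle cells and 8 in isogeneic ones, against 351, 533 and 227 in allogeneic endothelial cells and 77 in isogeneic ones. Tcap had 0, 1 and 12 UMIs in allogeneic smooth muscle cells and 210 in isogeneic ones. Against fibroblasts the 2 genes were Mt3 (-6.75) and Gja4 (-6.59). Mt3, a metallothionein, had 0, 1 and 6 UMIs in allogeneic smooth muscle cells and 75 in isogeneic ones, against 1, 15 and 111 in allogeneic fibroblasts and 11 in isogeneic ones.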

How the results depend on the processing

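No paired analysis was possible because the allogeneic libraries (1, 2 and 3) and the isogeneic one (2) share a single replicate number. The 120 calls became 327 with no filter beyond 1 count, 199 with Pecam1, Cdh5 and Ptprc all at 0 (replicate 1 then had too few cells), 75 with cells thinned to 2000 UMIs and 47 with a Myh11 limit of 1, and between 161 and 393 with 1 allograft left out, the highest without replicate 3. A Myh11 limit of 1 called again 10 of 26 named genes, and of the lists 23 interferon-gamma, 1 type I interferon, 6 class I, 0 class II and 0 chemokine genes (26, 14, 17, 7 and 4 as reported). Chosen after seeing the data were a Myh11 limit of 6, a fibroblast marker limit and the omission of each gene's highest cell. The Myh11 limit of 6 gave 179 calls (121 higher, 58 lower) and the omission of the highest cell 88. At most 5 fibroblast marker UMIs gave 155 (0 matrix genes, 1 contractile gene lower and 2 modulated-state genes higher). The log2 changes and calls at this fibroblast limit lack replicate 1, which kept only 4 members. This limit also selects cells on matrix transcripts and cannot test their fall. A limit of 2 leukocyte marker UMIs left 0, 0 and 25 allogeneic members and gave no value. Leave-one-out counts ran from 13 to 520 against endothelial cells and from 9 to 323 against fibroblasts, where no TMM, no filter and a minimum of 30 counts gave 1, 57 and 62. The share difference ran from -2.21 to -1.92 percentage points over the same omissions, and was -0.61 at the fibroblast limit, -1.37 at a Myh11 limit of 6, -1.37 at the leukocyte limit and -1.42 thinned. Of 39 genes followed, 8 changed direction somewhere, none of them while called: Notch3 (-0.044 with no filter, from -0.19 to 0.28 with 1 allograft left out, -0.066 at a Myh11 limit of 1, -0.28 thinned, -0.91 at the fibroblast limit), Icam1 (from -0.51 to 0.72 with 1 allograft left out, -0.0088 at a Myh11 limit of 3), Vcam1 (-0.10 with the other markers at 0), Hba-a1 (0.89 with doublets removed), Hbb-bs (1.30 with doublets removed, 0.67 thinned, 0.98 without its highest cell), and, at the fibroblast limit, Ednra (-0.073), Mylk (-0.024) and Spp1 (0.077). The causes were not tested. The small number of members, 14 in allogeneic replicate 1, limits low genes most.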

Other observations

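Rpl29 and Trim12a, which rose in allogeneic smooth muscle cells, were also higher in endothelial cells and fibroblasts of the allografts than in those of the isograft. Within each allograft both genes were lower in T cells than in these classes. They were picked after their values were seen. Rpl29, a ribosomal protein gene, was at 717, 704 and 581 CPM in allogeneic smooth muscle cells and 84.9 CPM in isogeneic ones (log2 change 2.87 ± 0.51, edgeR adjusted p = 0.00923). In endothelial cells Rpl29 was at 1412, 1452 and 1030 CPM in the allografts and 102 CPM in the isograft, and in fibroblasts at 1234, 1106 and 1092 CPM in the allografts and 93.5 CPM in the isograft. In T cells Rpl29 was at 125, 127 and 449 CPM in the allografts and 106 CPM in the isograft, so that T cells of replicates 1 and 2 stood near the isogeneic level and those of replicate 3 nearer to smooth muscle.

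Trim12a, of an antiviral gene family with near-identical copies, was at 65.2, 82.2 and 68.0 CPM in allogeneic smooth muscle cells with no UMI in isogeneic ones, at least 60.6-fold higher at a floor of 3 counts. Trim12a was at 106, 105 and 126 CPM in endothelial cells and at 26.8, 36.2 and 50.4 CPM in fibroblasts of the allografts. In T cells Trim12a was at 0.525, 2.24 and 9.12 CPM in the allografts, and no UMI was found in endothelial cells, fibroblasts or T cells of the isograft. The strain of donor and recipient is not in the labels, so an inherited difference between donors and a response to the graft cannot be told apart for these genes.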
